A study of Rattus norvegicus with 6 samples.

Results

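Transcripts that RefSeq lists as non-coding were compared between pancreatic islets of 3-month-old and 12-month-old male Wistar rats. Islets, the small groups of endocrine cells in the pancreas, had been isolated by collagenase digestion, and the animals carried no stated treatment or genetic change. The arrays were 1-colour Arraystar designs on the Agilent platform, with 3 arrays of each age and islets of 3 rats per age. The non-coding probes were chosen by their RefSeq accession: every probe of the array whose accession starts with XR_ (a transcript predicted by annotation software) or NR_ (a curated record). This gave 1729 of 24684 probes, 1702 of them XR_ and 27 NR_, to be set beside 15321 probes for curated mRNAs (NM_).

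Non-coding transcripts in RefSeq are of several kinds. Long non-coding RNAs such as *H19* and *Gas5* act as RNA or host smaller RNAs, pseudogene transcripts derive from copies of coding genes, and other records are a variant of a coding gene that RefSeq does not regard as translated. A few are the RNA parts of enzymes, such as telomerase. An XR_ record is a prediction, and many are later renamed or withdrawn.

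For 20 of the 27 NR_ probes the accession led to a gene symbol in the RefSeq gene table of assembly GRCr8, and none (0) of the XR_ accessions did, so that most of these probes have an accession only. The RefSeq promoter table of GRCr8 lists the annotated starts of 3 of the named genes, which show what transcript is meant. The 10 bases before the start are in lower case and the first 20 bases of the transcript in capitals, all on the plus strand; the probes' own sequences were not used here.
*Gas5*, chr13:75836953-75836982: tttcggagctGTGAGGCGAAGCTGAGCAGG
*Chchd4l1*, chrX:62690380-62690409: cagctcagagCTGCAAGCTGCTAGTTGTGA
*Abhd11-as1*, chr12:27317646-27317675: tgacaagaatCTCAGTCACCAGGCCTTGAC
In the 300 bases around these starts the share of G and C was 60.3%, 56.0% and 54.3%, against a median of 51.7% over 33469 promoters.

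The labelled tissue was borne out by the hormone transcripts, since *Ins1*, *Ins2*, *Gcg*, *Sst* and *Ppy* lay between 17.7 and 18.9 log2 units on all 6 arrays. Markers of acinar cells, from the exocrine pancreas, were bright as well. The log2 of the summed signals of 6 acinar markers was 19.9 to 20.6 at 3 months and 19.9 to 20.8 at 12 months. For 5 beta cell markers it was 19.7 to 19.9 and 19.9 to 20.1. These signals do not show how pure the islets were. Each age had its own scan, and the effects of scan and age cannot be told apart; negative control spots were 3.00 times as bright at 12 months. The 12-month array 2 stood apart over the tested non-coding probes. It correlated at 0.961 with 3-month array 2, at 0.939 with 12-month array 1 and at 0.881 with 12-month array 3. The 12-month arrays 1 and 3 correlated at 0.976 (a correlation across probes, which are not independent replicates). Over mRNA probes 12-month array 2 was closest to 12-month array 1, at 0.964, against 0.955 with 3-month array 2. The 12-month array 3 was furthest from the 3-month arrays over the non-coding probes, at 0.815 to 0.885. The main counts below are given with and without 12-month array 2, and the shares by brightness with all 6 arrays only. Markers of other cells also differed between the ages: all 7 tested nerve and Schwann cell markers were lower at 12 months with 2 of them called at an adjusted p under 0.05, and all 4 stellate and mesenchymal markers were higher with 1 called (limma), directions that also held with the other scaling and the other background correction named below. The log2 of the summed signals, to which bright markers add most, was 12.4 to 13.0 at 3 months and 11.1 to 11.7 at 12 months for the nerve and Schwann cell list. For the stellate and mesenchymal list it was 13.2 to 13.98 and 14.5 to 15.9. Of the beta cell markers 3 of 5 were higher, with *Slc30a8* called (3.71, limma adjusted p 0.00904). Other endocrine markers were higher in 5 of 6, with *Hhex* called (1.68, limma adjusted p 0.0236). Higher were 5 of 6 acinar, 2 of 3 duct, 1 of 4 endothelial and 1 of 6 immune markers. The 2 red blood cell markers were lower, and none of these was called. Over all tested probes 8.37% were called. With the other scaling 2 of the 5 beta cell, 2 of the 6 other endocrine and 1 of the 6 acinar markers were higher. The part of these markers in the results below was not tested. In whole islets fewer cells of a type and less RNA per cell cannot be told apart.

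Fewer non-coding than mRNA probes gave a signal. On the 3-month arrays 70.2% ± 2.60 (SD, n = 3) of the non-coding probes were well above background, the mark of the scanner software for a spot brighter than its surroundings, and on the 12-month arrays 52.6% ± 2.14 (SD, n = 3). The mRNA probes were at 82.4% ± 2.07 and 71.2% ± 2.54. The lowest normalized signal with this mark was 2.89 to 3.17 log2 units on the 3-month arrays and 4.26 to 5.13 on the 12-month arrays. The same signal could thus be marked at 3 months and not at 12 months. The part of this in the shares was not tested. A signal on all 6 arrays was found for 766 of the 1729 non-coding probes and on no array for 398. Probes marked on at least 3 arrays were tested, which left 1154, of which 1131 were XR_ and 23 NR_. Just inside this filter were 166 probes marked on exactly 3 arrays, and 156 of them were marked on the 3-month arrays alone. Just outside were 83 probes on exactly 2 arrays, with median log2 signals of 3.57 at 3 months and 3.49 at 12 months.

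An age difference at an adjusted p under 0.05 was found for 94 of the tested probes (limma, Benjamini-Hochberg over every tested probe of the array). Of these 73 were higher at 12 months and 21 lower. The share, 8.15%, was near the 8.37% of all 17941 tested probes (5.32% higher and 3.05% lower) and near the 8.48% of mRNA probes of the same brightness. With each array scaled to a common 75th percentile instead of quantile normalized, 50 were higher and 46 lower, and under that scaling the median difference of all tested probes was -0.40 against -0.17 here. The count of 94 was 252 without 12-month replicate 2, 130 of them higher and 122 lower, 15 without 12-month replicate 1 and 19 without 12-month replicate 3. It was 24, 59 and 32 without 3-month replicates 1, 2 and 3.

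The study counted genes that differed over 2-fold at an unadjusted p under 0.05, with a p from a paired test. At the same limits with limma's p, called the 2-fold threshold below, 333 non-coding probes (28.9%) were called, 137 higher and 196 lower, against 22.0% of all tested probes (10.1% higher and 11.9% lower). Of the 196 lower calls 55 were well above background on no 12-month array. The same held for 289 of the 1186 lower calls of mRNA probes. Such probes entered the test through the 3-month arrays alone. Among the higher non-coding calls 2 were above background on no 3-month array. The mRNA probes were brighter, with a median log2 signal of 9.42 against 7.41. When they were weighted to the brightness of the non-coding probes, 22.2% were called, 10.99% higher and 11.2% lower. The non-coding probes thus exceeded mRNA probes of like brightness by 5.76 percentage points among lower calls and by 0.883 among higher calls. These shares are descriptions and carry no p. With the 75th percentile scaling 96 were higher and 311 lower, and with another background correction (normexp) 99 were higher and 75 lower. The excess of lower calls, 5.76 points here, depended on these choices. It was 7.14 points with the 75th percentile scaling and 2.83 with normexp. With signal required on all 6 arrays it was 1.88 points, and with no filter 2.24. With the test of the paper's methods it was -0.125 points. A paired test over the replicate numbers called 64 higher and 25 lower, and its excess of lower calls was -1.42 points. Whether these numbers pair the arrays cannot be told from the data.

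The excess of lower calls did not hold when single arrays were left out. It was -1.43 points without 12-month replicate 1, 0.373 without 12-month replicate 3 and -0.303 without 3-month replicate 1. It was 6.98 without 12-month replicate 2, 6.97 without 3-month replicate 2 and 1.92 without 3-month replicate 3. Higher calls without 12-month replicate 2 made up 21.1% of the non-coding probes and 14.3% of the mRNA probes of like brightness.

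The 2 classes parted at different brightness for the 2 directions. Of the dimmest 116 non-coding probes 96 were well above background on no 12-month array. In that range 29.3% of the non-coding and 25.9% of the mRNA probes were lower. Between mean log2 signals of 4.54 and 8.21 the share of lower calls was 22.9% of 576 non-coding probes and 11.8% of 4011 mRNA probes, while higher calls were at 12.8% and 14.4%. Above 8.21 the order changed. There 12.6% of 462 non-coding probes were higher against 8.22% of 7515 mRNA probes, and 6.49% against 6.80% were lower. The median difference above 8.21 was 0.20 for the non-coding and -0.09 for the mRNA probes, and over all brightnesses it was -0.13 and, at like brightness, -0.14. These values by brightness are given with all 6 arrays only. Of the 115 non-coding probes between 4.54 and 5.25, 55 were above background on no 12-month array. Between 6.04 and 8.21 lay 33 of the 48 probes of a profile, described below, in which 12-month array 2 lay among the 3-month arrays.

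**Figure D1:**
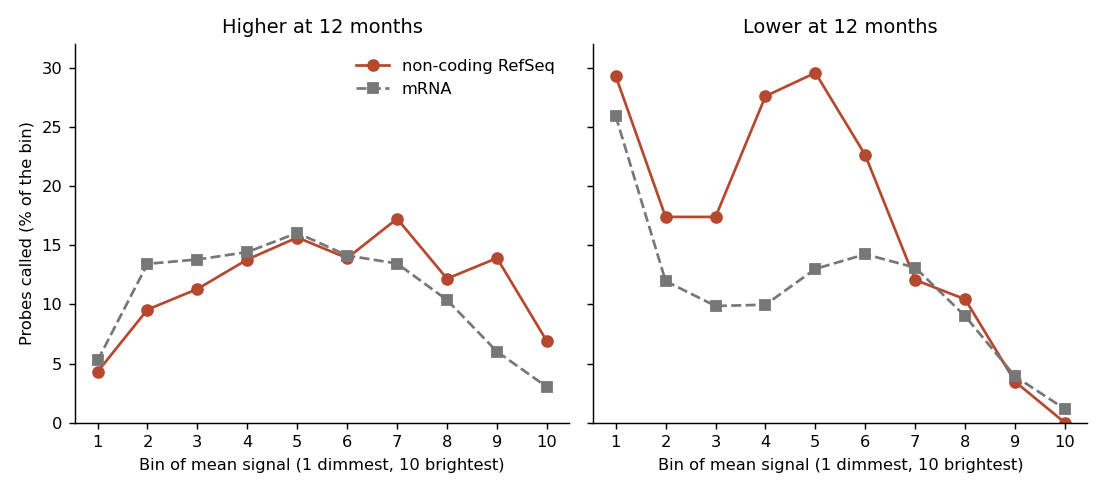
Share of probes called at a fold above 2 and an unadjusted p under 0.05 (y axis, % of the bin) in 10 equal bins of the 1154 tested non-coding probes by mean log2 signal (x axis), for non-coding probes (circles) and mRNA probes in the same signal ranges (squares). Lower calls of non-coding probes exceed those of mRNA probes in bins 2 to 6, where they are 22.9% against 11.8%, and higher calls do so in bins 7 to 10, where they are 12.6% against 8.22%. All 6 arrays are included, and 33 of the 48 probes of the shared profile lie in bins 4 to 6.

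The classes also differed in how large the differences were. A fall of over 8-fold was measured for 28 non-coding probes (2.43%) and for 11 mRNA probes, which is 0.135% at like brightness. A rise of over 8-fold was measured for 24 non-coding probes (2.08%), and for 1.49% of mRNA probes at like brightness. No (0) probe of either class had a fall of over 16-fold, and a rise of that size was measured for 0.433% of the non-coding probes (5) and 0.514% of mRNA probes at like brightness. Without 12-month replicate 2 there were 55 non-coding falls over 8-fold (4.77%, against 0.487% of mRNA probes) and 28 over 16-fold (2.43%, against 0.108%). The rises without it were 46 over 8-fold (3.99%, against 2.53%) and 17 over 16-fold (1.47%, against 0.694%).

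**Figure D2:**
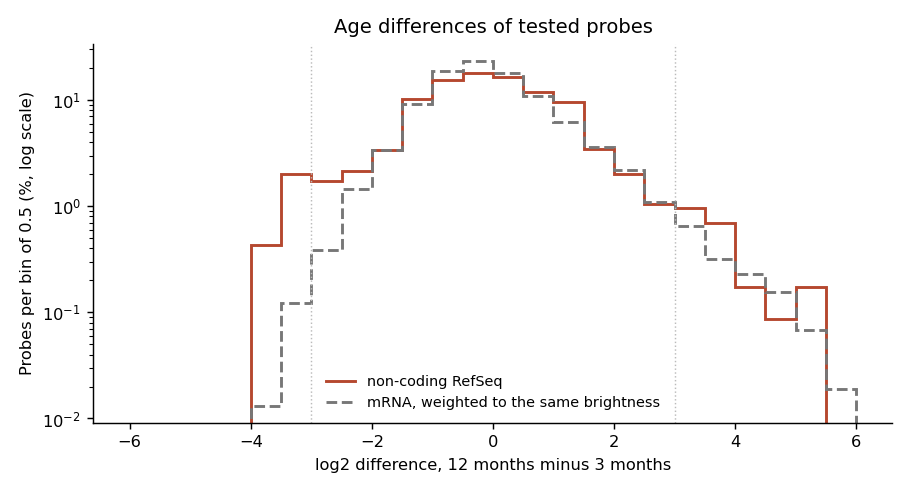
Distribution of the log2 difference between 12-month and 3-month islets (x axis) for the 1154 tested non-coding probes (solid line) and for mRNA probes weighted to the same brightness (dashed line), as % of probes on a log scale. The dotted lines mark an 8-fold difference, and the non-coding line lies above the mRNA line on the left, where 2.43% against 0.135% of the probes are found.

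Most of the largest falls followed a single profile over the arrays. Of the 28 falls over 8-fold, 27 correlated at more than 0.98 with the mean of the 28 and spanned more than 4 log2 units over the arrays, and in all 48 non-coding probes did. Since the profile was defined from these falls after their values were seen, the counts are descriptions. The median of the 48 probes was 4.58, 7.66 and 3.75 log2 units on 12-month arrays 1, 2 and 3, and 9.41, 7.38 and 8.11 on 3-month arrays 1, 2 and 3. Thus 12-month arrays 1 and 3 were low, and 12-month array 2 lay above 3-month array 2 and below the other 3-month arrays. In 31 of the 48 probes array 2 at 12 months was above array 2 at 3 months, so that the ages overlapped.

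None (0) of the 48 passed the adjusted threshold, with limma adjusted p-values from 0.0745 to 0.144, while their unadjusted limma p-values ran from 0.0111 to 0.0439. In the paired test 0 of the 48 were called. All were XR_ probes. The profile was found in 4.16% of the non-coding probes, in 0.106% of the mRNA probes (13 of 12286, and 0.161% at like brightness) and in 0.533% of the probes of other kinds on the array (24 of 4501). With a looser limit, a correlation above 0.95 and a span above 2, it held 90 of the 196 lower calls of non-coding probes (45.9%), 11.7% of those of mRNA probes and 20.7% of those of the other probes. When probes within the looser limit were left out of every class, a setting chosen after seeing the data, the excess of lower calls was 0.265 points in place of 5.76. Since the profile was defined from falls, this could take out lower calls alone.

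Of the 13 mRNA probes with this profile 12 had a gene name, and they were named here after their values were seen. They included the olfactory receptors *Or2y16*, *Or10al7* and *Or10al5b*, the vomeronasal receptor *Vom2r4*, the testis lactate dehydrogenase *Ldhc*, the sperm protein gene *Spmip3*, *Spetex2b*, the hair keratin *Krt39*, *Aox3*, *Faim2*, *Cit* and *RGD1565323*. Their differences ran from -2.24 to -3.22 on the log2 scale with limma adjusted p-values from 0.0713 to 0.148.

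**Figure D3:**
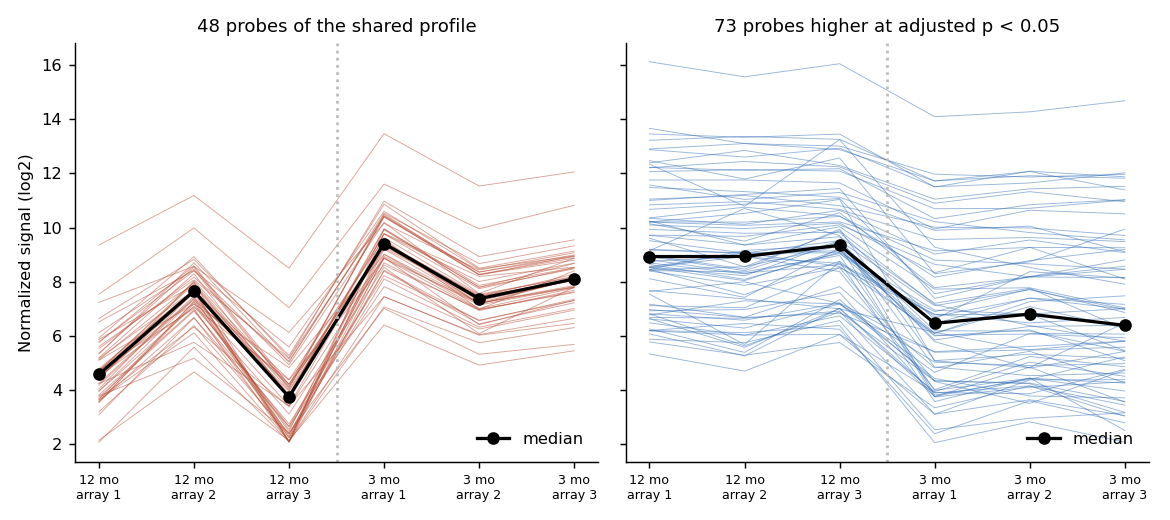
Normalized log2 signal (y axis) on each of the 6 arrays (x axis) for the 48 non-coding probes of the shared profile (left) and the 73 probes higher at an adjusted p under 0.05 (right); thin lines are probes and the thick line their median. On the left 12-month array 2, at a median of 7.66, lies among the 3-month arrays, and on the right the medians of the 3 arrays of each age lie together, as the choice of those probes by the test requires.

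Among the 73 probes higher at the adjusted threshold the arrays of an age lay together, as the test that chose them requires. Their median was 8.93, 8.94 and 9.35 log2 units on the 12-month arrays and 6.47, 6.81 and 6.39 on the 3-month arrays. Their differences ran from 0.94 to 5.37 with a median of 2.06, and 61 of them were above background on all 6 arrays. The 24 rises over 8-fold held 19 of these calls, and in 22 of the 24 the ages did not overlap. Their choice by a large difference favours both, so these counts add no support. Over all tested non-coding probes, not chosen by size, the ages did not overlap for 36.2%, against 39.3% of all tested probes. In 15 of the 24 rises 12-month array 2 was the lowest of its age.

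The 2 largest rises among the called probes, both with no gene name, were XR_007251 and XR_005519. XR_007251 was at 9.15, 10.71 and 9.71 log2 units at 12 months and at 3.82, 4.40 and 5.23 at 3 months. It rose by 5.37 (limma SE 0.51, adjusted p 0.00447). XR_005519 was at 10.21, 10.53 and 11.04 against 5.08, 4.84 and 6.48, and rose by 5.12 (limma SE 0.48, adjusted p 0.00447). Both were above background on every array. All 12-month arrays were above all 3-month arrays, as the choice of these probes required. That fixed the exact permutation p at 0.1 (two-sided), the smallest that 3 arrays against 3 allow, so it adds no support. Both passed the adjusted threshold in each of the 6 fits that left out 1 array, and in 12 of 14 alternatives counted with these. With normexp the rises of XR_007251 and XR_005519 were 3.45 and 3.74.

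The 21 probes lower at the adjusted threshold fell by less. Their median difference was -1.43, and 8 of them had no signal above background on any 12-month array. XR_006426, with no gene name, was one of these 8. It was at 2.63, 2.11 and 2.20 log2 units at 12 months and at 6.03, 5.49 and 4.43 at 3 months. The 12-month signals were not well above background, so only an approximate bound is given, 1.43-fold lower. The limma adjusted p of 0.0148 belongs to the difference of the printed signals and not to the bound. The probe entered the test through its 3-month signals alone, and with normexp its limma adjusted p was 0.0769. The bound sets the 3-month mean against the lowest signal well above background on each 12-month array. It is approximate, since a probe without this mark can be brighter than that signal. On 12-month array 2 an unnamed NR_ probe without the mark was at 5.46, where the lowest marked signal was 5.13. XR_006539 was at 5.69, 5.94 and 5.06 against 8.71, 7.23 and 7.33, and fell by 2.19 (limma SE 0.47, adjusted p 0.0383). Leaving out 1 array kept the call of XR_006539 in 1 of 6 fits and that of XR_006426 in 4 of 6.

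The curated NR_ transcripts were mostly lower at 12 months. Of the 23 tested, 21 had a lower mean and 2 a higher one, where 10404 of all 17941 tested probes were lower, with a median difference of -0.49 against -0.17 over all tested probes. No overlap between the ages was seen for 10 of the lower and 1 of the higher transcripts, together 47.8%, against 39.3% of all tested probes. *Rpph1*, *Oprm1*, *Dzip1-ps1* and an unnamed accession were above background on no 12-month array and entered the test through the 3-month arrays alone. All of these were among the lower, and all but *Dzip1-ps1* among those without overlap. With signal required on all 6 arrays 16 of 18 had a lower mean. Lower means were found for 22 of 23 with the 75th percentile scaling, 20 of 23 with normexp, 18 of 23 without 12-month replicate 2 and 18 of 23 with 1 spot per probe in place of the mean of its spots. At the adjusted threshold 2 (8.70%) were called, against 8.37% of all tested probes: *Gapdh-ps1* and another accession with no gene name, which fell by 1.35 (limma SE 0.26, adjusted p 0.0312).

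**Figure D4:**
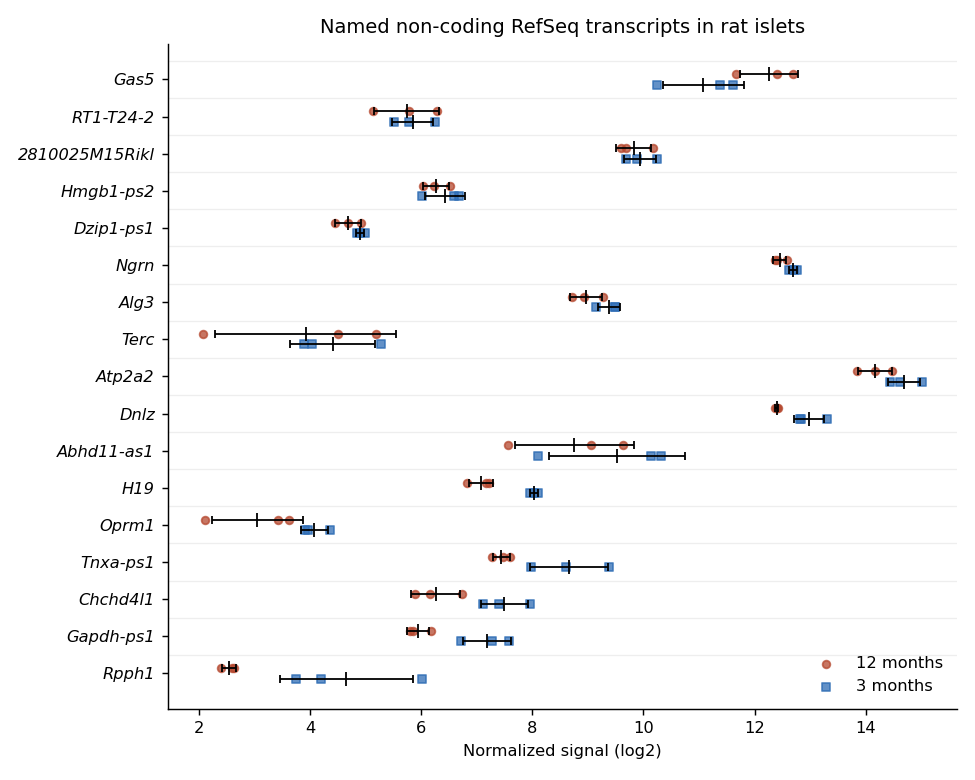
Normalized log2 signal (x axis) of the 17 tested non-coding transcripts with a gene name on each 12-month array (circles) and 3-month array (squares), with the mean (tick) and SD (bar, n = 3). *Gas5* at the top is the 1 with a higher mean at 12 months, by 1.18 log2 units. *Rpph1* at the bottom has the largest difference of the printed signals the other way. No 12-month array was above background for *Rpph1*, so no fold is given, and with normexp the difference was -0.42.

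Among the long non-coding RNAs *Gas5* was the 1 named transcript with a higher mean at 12 months. *Gas5* hosts small nucleolar RNAs in its introns and is known to accumulate in cells that stop growing. It was at 12.69, 11.67 and 12.41 log2 units at 12 months and at 11.62, 11.37 and 10.24 at 3 months. The lowest 12-month array, array 2, lay just above the highest 3-month array. The difference of 1.18 (limma SE 0.45, adjusted p 0.129) did not pass, and it stayed positive in every alternative, from 0.69 to 1.47.

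*H19* is an imprinted RNA expressed from the maternal allele and lies beside *Igf2*. It was at 7.22, 7.17 and 6.82 log2 units at 12 months against 7.97, 8.02 and 8.10 at 3 months. The ages were well separated and the 3-month arrays lay within an SD of 0.066, but the difference of -0.96 (limma SE 0.23, adjusted p 0.0514) missed the adjusted threshold, which it passed under 3 of 14 alternatives. *Igf2*, the neighbouring growth factor gene, was at 13.78, 13.68 and 13.47 against 13.98, 14.05 and 13.31, a difference of -0.13 (limma SE 0.28, adjusted p 0.764). The ages of *Igf2* overlapped. *Igf2* and the other coding genes compared below were picked after values had been seen.

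*Abhd11-as1*, a transcript antisense to a coding gene, varied as much within an age as between them. It was at 7.56, 9.06 and 9.64 log2 units at 12 months and 10.13, 8.11 and 10.32 at 3 months, a difference of -0.77 (limma SE 0.75, adjusted p 0.495). *2810025M15Rikl* and *RT1-T24-2*, an RNA named for the major histocompatibility region, differed by -0.12 and -0.11 with adjusted p-values of 0.785 and 0.855. Both signs turned when single arrays were left out. *AA926063*, *CB741658* and *E230034O05Rik* were above background on at most 2 arrays and were not tested.

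*Chchd4l1* is annotated as non-coding and named for *Chchd4*, whose protein imports others into the space between the mitochondrial membranes. It was at 6.15, 6.74 and 5.88 log2 units at 12 months and 7.40, 7.12 and 7.95 at 3 months, a difference of -1.24 (limma SE 0.34, adjusted p 0.0680). The coding gene *Chchd4* was at 10.20, 10.68 and 10.12 against 11.10, 11.11 and 11.33, a difference of -0.85 (limma SE 0.25, adjusted p 0.0803). Neither passed, and in both the ages did not overlap.

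The RNA parts of enzymes lay near background. *Terc*, the RNA template of telomerase, was at 5.18, 2.08 and 4.49 log2 units at 12 months, where 1 of the 3 arrays was above background, and at 4.04, 5.28 and 3.89 at 3 months. The difference of -0.49 (limma SE 0.82, adjusted p 0.698) was smaller than the spread, and without 12-month replicate 2 it was 0.43. *Tert*, the protein of telomerase, differed by -0.57 (limma SE 0.50, adjusted p 0.453). *Rpph1*, the RNA of ribonuclease P, which the gene table files with the RNase MRP RNAs, was at 2.39, 2.63 and 2.60 against 6.02, 3.75 and 4.18. No 12-month array was above background and the 3-month arrays differed widely, so no fold is given (limma adjusted p 0.0662).

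Of the 4 pseudogene transcripts tested, 1 passed. *Gapdh-ps1*, a copy of the gene of a glycolytic enzyme, was at 5.86, 6.17 and 5.80 log2 units at 12 months and 7.28, 6.72 and 7.57 at 3 months. All 12-month arrays were lower, and it fell by 1.25 (limma SE 0.30, adjusted p 0.0496); it passed under 4 of 14 alternatives. *Gapdh* itself was at 12.36, 9.88 and 13.02 against 12.02, 11.45 and 10.06, with no order between the ages and a difference of 0.58 (limma SE 0.88, adjusted p 0.668).

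*Tnxa-ps1*, a copy of the tenascin X gene, an extracellular matrix protein, was at 7.59, 7.27 and 7.46 against 9.38, 7.98 and 8.60. The difference of -1.21 (limma SE 0.38, adjusted p 0.0875) did not pass, though the ages did not overlap. *Hmgb1-ps2* differed by -0.17 (limma SE 0.28, adjusted p 0.701) and *Hmgb1*, which encodes a chromatin protein, by -0.98 (limma SE 0.33, adjusted p 0.0992). *Dzip1-ps1* was above background on no 12-month array and differed by -0.22 (limma SE 0.23, adjusted p 0.525). How far a pseudogene probe also binds RNA of its parent gene was not tested.

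The remaining 5 named transcripts are non-coding variants of coding genes, and each has a coding mRNA probe on the array. For *Dnlz*, a partner of a mitochondrial chaperone, the variant was at 12.41, 12.37 and 12.42 log2 units at 12 months and 13.30, 12.83 and 12.81 at 3 months. The coding mRNA followed at 12.39, 12.45 and 12.52 against 13.35, 12.87 and 12.83. The differences were -0.58 (limma SE 0.24, adjusted p 0.151) and -0.56 (limma SE 0.24, adjusted p 0.164). For *Ngrn*, which encodes the mitochondrial protein neugrin, they were -0.25 and -0.30, and for *Alg3*, an enzyme of protein glycosylation in the endoplasmic reticulum, -0.41 and -0.40.

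*Atp2a2*, the gene of a calcium pump of the endoplasmic reticulum, was the 1 pair of variants with opposite signs. The non-coding variant was at 14.17, 14.48 and 13.85 log2 units at 12 months and 14.44, 14.62 and 15.01 at 3 months, and the ages overlapped. The coding mRNA was at 15.01, 15.35 and 15.03 against 14.64, 14.91 and 14.73, with all 12-month arrays higher. The differences of -0.52 (limma SE 0.28, adjusted p 0.235) and 0.37 (limma SE 0.23, adjusted p 0.296) did not pass, and the difference between them was not tested. For *Oprm1*, the mu opioid receptor, neither probe was above background at 12 months, and the limma adjusted p-values were 0.154 and 0.164.

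Since 1725 of the non-coding probes were printed on 3 spots and 4 on 10, while 15283 of the mRNA probes had 1 spot, the spread between spots could be set beside that between arrays. The SD between the spots of a tested non-coding probe on an array, before normalization, had a median of 0.112 log2 units. The SD between the normalized arrays of an age, which also holds differences between islet samples, had a median of 0.505. For the dimmer part of the probes these were 0.169 and 0.574, and for the brighter part 0.0806 and 0.405. With 1 spot per probe, a setting chosen after seeing the data, 331 probes passed the 2-fold threshold and 95 the adjusted one, against 333 and 94.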

How the data were processed

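Islet RNA of 3 arrays per age was read with Agilent Feature Extraction 11.0.1.1. The deposited files hold, per the file headers, background-subtracted spot intensity, not normalized between arrays. The authors also deposited log2 values of 12145 probes, all mRNA, which were not used for the comparisons. Groups came from the labels; the 12-month array called 3 carries no number there. The log2 intensity was averaged over unmarked spots, quantile normalized over 24684 non-control probes, and tested where well above background on at least 3 of 6 arrays by a two-sided linear model without a block (lmFit, then eBayes, of limma 3.58.1; R 4.3.3) and Benjamini-Hochberg adjusted p-values. The step was tested on simulated data. For like brightness, mRNA probes were weighted over 10 bins of the non-coding probes' mean signal. Named were all tested probes with a matched gene, and among the others the 2 largest rises and falls with an adjusted p under 0.05, ages that did not overlap and signal on all 3 arrays of the higher age. The probes, lists and tests were chosen with earlier results of these data known. Alternatives were other scalings, background corrections and filters, variance models, replicate blocks, plain t-tests, 4 of the arrays, other matchings, and each array left out; the settings with 1 spot per probe and without the shared profile, and the share and gap under the paired test, were added after seeing the data. Arrays have no read depth, and their number limits the precision.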

Additional observations from a re-analysis of the deposited data

Results flagged for a closer look

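Signal also appeared outside the measurement, in the dark corner controls, which hold no probe for rat RNA and were left out of every test. The mean over arrays of their median signal was 82.7 ± 3.21 scanner units at 12 months and 29.5 ± 1.32 at 3 months (SD, n = 3 per age), which is 2.80 times as bright at 12 months. Its part in the results for dim probes was not tested.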

How the results depend on the processing

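Of the 94 non-coding calls at the adjusted threshold, the methods' t-test gave 31 and a fit of the 4 arrays with a common ending of their names gave 0; with single arrays left out the count was 15 to 252. Against 333 at the 2-fold threshold, it was 186 with the methods' t-test, 174 with normexp, 196 with signal required on all 6 arrays, 160 with the 4 arrays, and 209 to 484 over the fits without 1 array. The share of these calls that were higher, 41.1%, was 23.6% with the 75th percentile shift, 60.2% with signal required on all 6 arrays, 56.9% with normexp, 58.1% with the methods' t-test, 61.9% with the 4 arrays, 56.4% without the shared profile (which by its definition takes out lower calls alone) and 36.9% to 57.3% over the fits without 1 array.

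The gap in percent called between non-coding and mRNA probes of like brightness, 6.65 points, was 1.72 with no filter, 0.815 with the methods' t-test, -1.31 with the 4 arrays, 9.38 for NR_ probes alone, 2.24 without the shared profile and -0.731 to 13.8 over the fits without 1 array. The gap between their medians, 0.01, was 0.18 with signal required on all 6 arrays and -0.35 for NR_ probes alone.

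Of the 17 transcripts with a gene name 1 passed the adjusted threshold, and so did the 4 XR_ probes that had been picked for passing it. Counted over these 21, not always the same ones, 5 passed here, 3 with normexp, 0 with the 4 arrays and 2 to 5 over the fits without 1 array. The sign turned for 3 transcripts, all uncalled: *2810025M15Rikl* was at 0.15 with the 4 arrays and between -0.30 and 0.036 without single arrays, *RT1-T24-2* between -0.39 and 0.20 and *Terc* between -1.12 and 0.43.

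Over the tested non-coding probes, deviations from the mean of an age correlated at -0.09 for the arrays with number 1. For number 2 they correlated at -0.50, and for the remaining 2 arrays at -0.34. These values cannot show whether the arrays were paired. The deviations of the arrays of an age are tied to each other, and 12-month array 3 carries no number. A replicate block over these 3 pairs left 12 probes at the adjusted threshold, the gap in percent called was 3.94, and 2 of the 21 passed. With the block of the numbered pairs 0 probes passed it and 150 the 2-fold threshold, of which 61.3% were higher; the gap was -3.47, the gap between medians -0.15, and 0 of the 21 passed. The paired t-test, which the study's supplement names for the arrays, gave 0 and 89, of which 71.9% were higher, and a gap of -1.01.

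A block for slide or scan could not be fitted, since no scan holds both ages. The causes of these shifts were not tested. The background was brighter at 12 months, and its part in the results for dim probes was not tested.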
